A study of Mus musculus with 8 samples.

Results

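The peptidylarginine deiminases are the 5 mouse genes *Padi1*, *Padi2*, *Padi3*, *Padi4* and *Padi6*. Each was found by its annotated symbol and has a single probe set, so that the family makes up 5 of the 19572 probe sets with a gene symbol and of the 22206 that are not controls. The family was chosen from the array values themselves, because *Padi2* stood among the largest decreases in the knockout, so every knockout minus wild-type value of a member is given as a description and was not tested. AF (annulus fibrosus) tissue, the fibrous outer ring of the disc, came from the lumbar discs of 4 wild-type (WT) and 4 *Abcc6*-/- (KO) females, all 7 months old. The KO line is a C57BL6J mouse with a germline, global deletion of the transporter ABCC6, used as a model of pseudoxanthoma elasticum, and no treatment is given for either group. The discs of each mouse were pooled, so that each Mouse Clariom S array is 1 mouse and the mice are the replicates. In such bulk tissue, fewer cells of a type and less RNA per cell cannot be told apart.

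These enzymes convert arginine residues of proteins to citrulline in a reaction that needs calcium, which removes a positive charge from the protein. PADI1 and PADI3 are known from the epidermis and the hair follicle, where they act on filaggrin, keratins and trichohyalin, and PADI6 from the oocyte, where it is part of the subcortical maternal complex. PADI2 is the most widely expressed, in muscle, brain, macrophages and mast cells, and acts on vimentin and myelin basic protein. PADI4 is the form of granulocytes, where it enters the nucleus and citrullinates histones, a step in the release of neutrophil extracellular traps.

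The genes form a single cluster on mouse chromosome 4, in the order *Padi6*, *Padi4*, *Padi3*, *Padi1* and *Padi2*. *Padi2* is read from the plus strand and the other 4 from the minus strand. The RefSeq promoters (build GRCm38.p6, 250 bases before to 50 after the start) are shown for both members that lay above background on the array and for *Padi3*, an example of those that did not. They lie at chr4:140906110-140906409 on the plus strand for *Padi2*, at chr4:140774154-140774453 on the minus strand for *Padi4* and at chr4:140810599-140810898 on the minus strand for *Padi3*. Capitals mark matches on either strand to the GC box GGGCGG, the CCAAT box CCAAT, the TATA box TATAAA and the AP-1 site TGACTCA.
Padi2: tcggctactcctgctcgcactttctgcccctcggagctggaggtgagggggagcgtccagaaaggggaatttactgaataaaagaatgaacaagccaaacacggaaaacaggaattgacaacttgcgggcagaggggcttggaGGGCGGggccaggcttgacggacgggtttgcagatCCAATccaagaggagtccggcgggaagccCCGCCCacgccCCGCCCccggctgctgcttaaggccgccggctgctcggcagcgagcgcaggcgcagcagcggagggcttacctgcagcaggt
Padi4: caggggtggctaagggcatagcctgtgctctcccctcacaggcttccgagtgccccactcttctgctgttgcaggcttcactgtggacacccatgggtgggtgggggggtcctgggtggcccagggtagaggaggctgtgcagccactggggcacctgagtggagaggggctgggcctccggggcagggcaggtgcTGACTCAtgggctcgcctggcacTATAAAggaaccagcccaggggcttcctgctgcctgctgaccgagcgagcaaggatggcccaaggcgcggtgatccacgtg
Padi3: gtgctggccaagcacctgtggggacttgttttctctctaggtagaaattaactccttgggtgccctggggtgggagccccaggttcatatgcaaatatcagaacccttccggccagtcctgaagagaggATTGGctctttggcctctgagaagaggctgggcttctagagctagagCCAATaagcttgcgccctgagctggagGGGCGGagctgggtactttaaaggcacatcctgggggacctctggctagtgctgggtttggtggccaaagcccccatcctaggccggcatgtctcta
The *Padi2* promoter held 3 GC boxes, at 107, 43 and 32 bases before the start, and 1 CCAAT box. Its 22 CG dinucleotides were more than in 76.9% of the 32851 promoters of the table, whose median was 7. *Padi4* had a TATA box that begins 31 bases before the start, an AP-1 site and 8 CG dinucleotides. *Padi3* held 1 GC box, 2 CCAAT boxes and 4 CG dinucleotides. Of the members not shown, *Padi6* held a GC box and a CCAAT box with 2 CG dinucleotides, and *Padi1* held none of these motifs, with 3. None of the matches overlapped another. Over all promoters, 35.7% held a GC box, 37.4% a CCAAT box, 13.6% a TATA box and 5.2% the AP-1 site, so that matches to the first 3 are frequent in windows of this length. The plot of CG dinucleotides sets *Padi2* apart from the other members by position only.

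**Figure D1:**
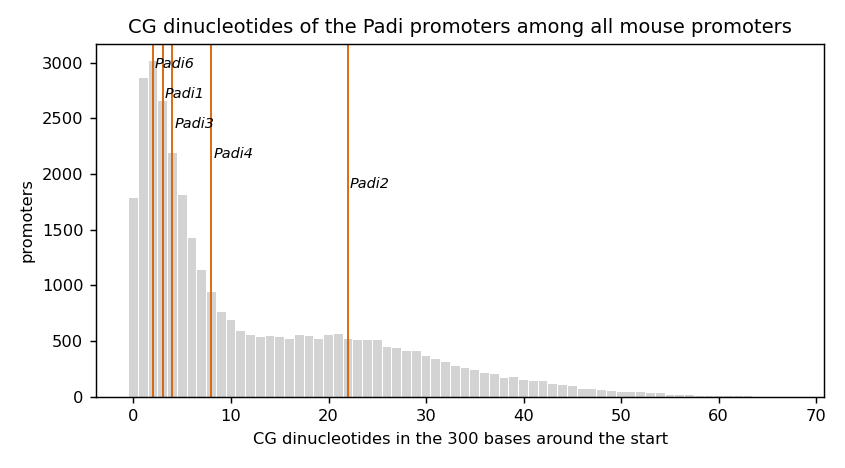
Number of mouse promoters (vertical axis) by their number of CG dinucleotides in 300 bases (horizontal axis), with an orange line for each *Padi* gene. *Padi6*, *Padi1* and *Padi3* (2, 3 and 4) lie at the low peak, *Padi4* at 8 and *Padi2* at 22.

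Values are log2 signal, and background was taken from the 5222 negative controls of the same array, whose median ran from 5.40 to 5.995 log2. The targeted gene, *Abcc6*, stood between 4.97 and 5.25 log2 in WT mice and between 5.01 and 6.17 log2 in KO mice, below that median in 7 of 8 arrays, so its probe set checks no genotype. Correlations between arrays ran from 0.893 to 0.969. Of 16 markers of AF cells, 11 lay above the negative control median in every array, among them *Acan*, *Comp*, *Chad*, *Dcn* and *Col1a1*, while the tendon and annulus factor *Scx* was above it in 0 of 8 arrays and *Mkx* in 1. All 15 neutrophil probe sets were above it in every array, with *Ngp* and *Camp* near the top of the scale. The number of arrays limits the precision.

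*Padi2* exceeded background in each of the 8 mice. Its signal was 10.50 log2 in WT mouse 1, 9.82 in mouse 2, 11.87 in mouse 3 and 10.33 in mouse 5. In the KO mice it was 8.79 log2 in mouse 6, 6.59 in mouse 7, 9.72 in mouse 8 and 8.77 in mouse 9. All KO values were below all WT values, but the highest KO mouse, 8, stood only 0.10 log2 under the lowest WT mouse, 2. The WT mean of 10.63 ± 0.87 log2 compared with a KO mean of 8.47 ± 1.33 log2 (SD, n = 4 each), a difference of −2.16 log2 (standard error 0.65 from limma), or 4.48-fold lower in KO mice. This was the 10th largest decrease of the 22206 probe sets. The cutoff of the study, an unadjusted p of at most 0.01 with a fold change of at least 1.75, was met by 0.297% of all probe sets in the lower direction and is used here only for genes outside the family. The genotypes did not overlap in 2.53% of probe sets, and with KO lower in 0.973%. Since *Padi2* was chosen from this contrast, nothing is read from its place among them. No probe set of the array had an adjusted p under 0.05 (0%, limma with Benjamini-Hochberg adjustment), 1172 had an unadjusted p under 0.05, and the methods' t-test also left 0 after adjustment, with 1051 before it.

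Against the negative controls of its own array, *Padi2* stood higher than 93.6% to 98.2% of them in the WT mice. In KO mouse 8 the share was 96.1%, in mice 6 and 9 it was 88.1% and 88.3%, and in mouse 7 only 60.9%. As distances from the negative control median, WT mouse 1 had 5.07 log2, mouse 2 had 4.00, mouse 3 had 6.23 and mouse 5 had 4.68, while KO mouse 6 had 2.98 log2, mouse 7 had 0.59, mouse 8 had 4.32 and mouse 9 had 2.89. On this scale the genotypes overlapped, since KO mouse 8 stood above WT mouse 2, and the difference was −2.30 log2 (standard error 0.73), where the median of all probe sets was −0.11 log2 against 0.03 log2 on the deposited scale. KO mouse 7 was the only mouse in which *Padi2* lay below the 75th percentile of the negative controls.

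*Padi4* also exceeded background in each of the 8 mice. Its signal was 8.13 log2 in WT mouse 1, 9.24 in mouse 2, 9.32 in mouse 3 and 9.76 in mouse 5. KO mouse 7 had 9.47 log2, mouse 8 had 9.64 and mouse 9 had 9.15, all within the WT range, whereas KO mouse 6 had 6.59 log2. The WT mean of 9.11 ± 0.70 log2 compared with a KO mean of 8.71 ± 1.43 log2 (SD, n = 4 each), a difference of −0.40 log2 (standard error 0.64). Without KO mouse 6 the difference turned to 0.31 log2 (standard error 0.41), so that its sign rests on that mouse. In KO mouse 6 *Padi4* stood higher than 65.1% of the negative controls, against 89.4% to 95.9% in the other mice.

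*Padi1*, *Padi3* and *Padi6*, the forms of the skin, the hair follicle and the oocyte, were below the negative control median in every array, as were 21.4% of all probe sets. *Padi1* ran from 3.04 to 4.31 log2, which is −2.79 to −1.35 log2 from the median. Its highest values were 4.31 log2 in both WT mouse 5 and KO mouse 9, and its difference between genotypes was 0.03 log2 (standard error 0.35). *Padi3* ran from 3.57 to 4.44 log2 with a difference of 0.0025 log2 (standard error 0.29). *Padi6* ran from 3.37 to 4.08 log2 with a difference of 0.05 log2 (standard error 0.26). With values at background, such differences do not measure a change of the transcripts in either direction. Thus 2 of the 5 members had signal above background in all arrays, against 47.8% of all probe sets, and only those 2 passed a filter that asks for signal above the median in at least 4 arrays. The plot of the members by mouse shows both patterns.

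**Figure D2:**
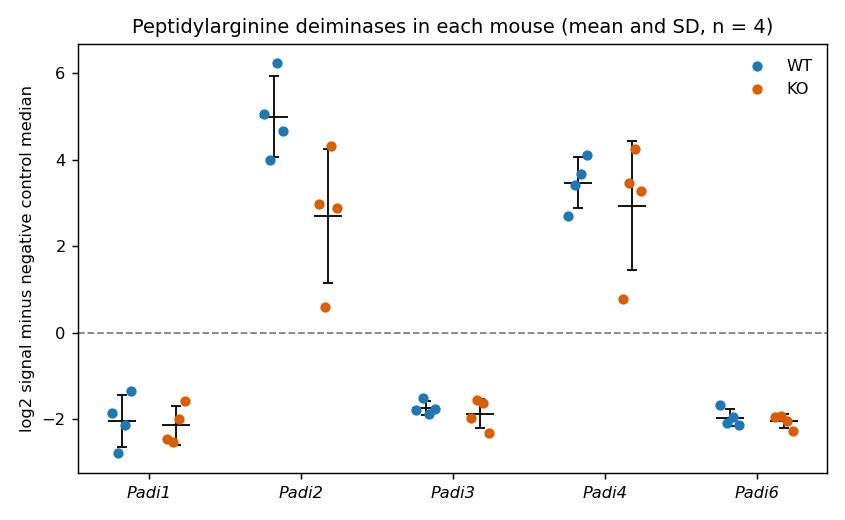
Log2 signal minus the negative control median of the array (vertical axis) for each member, with a point per WT (blue) or KO (orange) mouse and black bars for mean and SD (n = 4). *Padi2* and *Padi4* lie above the dashed line at 0 in every mouse, down to 0.59 and 0.79, while the other members lie between −2.79 and −1.35.

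The level of *Padi2* varied among mice of the same genotype as well, by 2.05 log2 in WT and 3.13 log2 in KO mice. These differences were set beside a control contrast, which is how far the median of the 1324 positive controls lay above that of the negative ones, and beside the means of 10 marker lists of cell types and tissues. The contrast was 4.28 log2 in WT mouse 1, 3.17 in mouse 2, 4.22 in mouse 3 and 3.61 in mouse 5. For the KO group, mouse 6 had 2.99 log2, mouse 7 had 2.37, mouse 8 had 4.30 and mouse 9 had 2.85. KO mouse 7 was thus lowest in both the contrast and *Padi2*, and KO mouse 8 was highest in both among KO mice. After genotype means were subtracted, *Padi2* and the contrast gave Pearson's r = 0.81 over the 8 mice (exact permutation within genotypes, p = 0.0625, adjusted p = 0.172 over 22 relations) and Spearman's rho = 0.81 (exact permutation, p = 0.0365, adjusted p = 0.248), and r = 0.93 without WT mouse 1 and KO mouse 8. In a fit with the contrast as a covariate, the KO minus WT difference of *Padi2* was −1.26 log2 (standard error 0.50). The part of the contrast in the difference was not tested further.

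The mean of the AF markers was highest in WT mouse 3 at 11.87 log2 and lowest in KO mouse 7 at 10.50 log2, but its relation to *Padi2* did not pass. Within genotypes it gave Pearson's r = 0.75 (exact permutation, p = 0.0573, adjusted p = 0.172) and Spearman's rho = 0.71 (exact permutation, p = 0.0747, adjusted p = 0.256), with r = 0.75 without WT mouse 3 and KO mouse 6. With the AF marker mean as a covariate the *Padi2* difference was −1.7505 log2 (standard error 0.51). The AF mean itself had a WT value of 11.21 ± 0.45 log2 and a KO value of 10.98 ± 0.49 log2 (SD, n = 4 each, 2-sided exact permutation test, p = 0.543). Neither macrophages (r = 0.28) nor osteoclasts (r = 0.18) nor mast cells (r = 0.31) had marker means that passed with *Padi2* (exact permutation, adjusted p = 0.797, 0.849 and 0.756). Their Spearman's rho was 0.31, 0.24 and 0.45 (exact permutation, adjusted p = 0.769, 0.791 and 0.497). Without KO mouse 6 and WT mouse 1, r was 0.83 for mast cells and 0.41 for osteoclasts. For macrophages r was −0.13 without KO mouse 8 and WT mouse 5. Schwann cell markers did not pass with *Padi2* (r = 0.32, exact permutation, adjusted p = 0.756, Spearman's rho = 0.62, adjusted p = 0.310). Their r was 0.68 without WT mice 1 and 5. The oocyte markers, of which 1 of 12 was above background in every array, had the only mean that passed (Pearson's r = −0.77, exact permutation, p = 0.00174, adjusted p = 0.0191; Spearman's rho = −0.83, p = 0.00347, adjusted p = 0.0382). Without KO mice 7 and 8 the r of that relation was −0.36. In WT mice alone it was −0.99, where the oocyte mean ran only from 5.06 to 5.14 log2, and in KO mice alone −0.79. The other lists that lie mostly at background also ran against *Padi2* without passing, with r = −0.83 for oligodendrocytes and −0.81 for the cornified envelope (exact permutation, adjusted p = 0.105 and 0.172; Spearman's rho = −0.76 and −0.71, adjusted p = 0.248 and 0.256).

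*Padi4* followed the neutrophil markers, the only list whose relation to it passed. The mean of the 15 neutrophil probe sets was 14.29 log2 in KO mouse 6, in which *Padi4* was lowest, and 15.48 log2 in WT mouse 1, which was next lowest in both. In the other mice it ran from 15.64 to 16.41 log2. Within genotypes Pearson's r was 0.94 over the 8 mice (exact permutation, p = 0.00174, the smallest that the 576 orders within genotypes allow, adjusted p = 0.0191 over 22 relations) and Spearman's rho was 0.88 (exact permutation, p = 0.00347, adjusted p = 0.0382). Without these 2 mice r was 0.80. In WT mice alone r was 0.84 and in KO mice alone 0.97. The difference of the neutrophil mean between genotypes was −0.46 log2, and −0.06 log2 without KO mouse 6. With all 8 mice it did not pass (WT mean 15.95 ± 0.45 log2, KO mean 15.49 ± 0.85 log2, SD, n = 4 each, 2-sided exact permutation test, p = 0.514). The relation of *Padi4* to the control contrast did not pass (Pearson's r = 0.02, exact permutation, adjusted p = 0.960; Spearman's rho = −0.07, adjusted p = 0.917). Mast cell and osteoclast marker means also rose with *Padi4* without passing (r = 0.88 and 0.72, exact permutation, adjusted p = 0.130 and 0.182). Without KO mouse 6 and WT mouse 1 these r values were 0.26 and −0.28. Schwann cell markers ran against *Padi4* without passing (r = −0.65, exact permutation, adjusted p = 0.105).

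**Figure D3:**
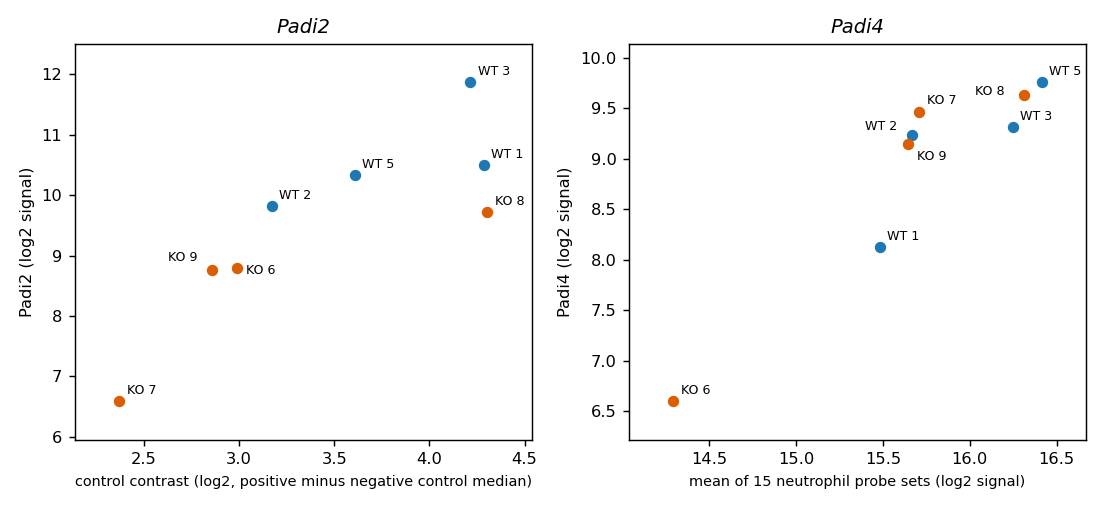
Log2 signal of *Padi2* against the control contrast (left) and of *Padi4* against the mean of the neutrophil probe sets (right), with a labelled point per WT (blue) or KO (orange) mouse. KO mouse 7 is lowest in the left panel at 6.59 log2 and KO mouse 6 in the right panel at 6.59 log2.

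The probe sets most like *Padi2* over the 8 mice, of 9346 named ones above background in every array, were *Hexim1* (r = 0.98), an inhibitor of the elongation kinase P-TEFb, *Mfap1a* (0.98), a spliceosome component, *Fbxo11* (0.97), a substrate receptor of a ubiquitin ligase, *Slc41a1* (0.97), a magnesium transporter, and *Slc10a3* (0.97). An r over 0.9 with *Padi2* was found for 103 of them, or 1.1%. With genotype means subtracted, the nearest were *Colgalt1* (0.99), a galactosyltransferase of collagen, *Gpat4* (0.98), *Xpo1* (0.98), the exporter of nuclear proteins, *Appbp2* (0.98) and *Atp6v0a2* (0.98), a subunit of the proton pump. None of the first 5 returned in this second set. The first likeness includes the difference between genotypes by which *Padi2* was chosen, and the second does not. For *Padi4* the nearest over the 8 mice were *Ncf4* (0.98), a subunit of the phagocyte NADPH oxidase, *Ilk* (0.98), *Eif5a* (0.97), *Alox5ap* (0.97), which is needed for leukotriene synthesis in leukocytes, and *Smc4* (0.97), a condensin subunit. *Ncf4* and *Ilk* (both 0.99) stayed among the nearest after genotype means were subtracted, beside *Eif2ak3* (0.99), *Sp140* (0.99) and *Top2a* (0.98).

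The genes beside the cluster were compared next, since their position played no part in the choice of the members. Of the 10 nearest named genes on each side of the cluster, 0 of 20 were at the cutoff in either direction (0.725% of all probe sets were). There were 10 lower and 10 higher, with a median difference of −0.01 log2, against 0.03 log2 for all probe sets. However, 9 of the 20 were above background in every array and 6 in none. With the filter on low signal the median of the neighbours was −0.29 log2, against −0.08 log2 for all probe sets kept. Next to *Padi2* lie *Gm13031*, *Sdhb*, a subunit of succinate dehydrogenase, and *Atp13a2*, a lysosomal ATPase. The annotated span of *Gm13031* overlaps that of *Padi2*, and it was below the negative control median in every array. *Sdhb* differed by −0.17 log2 (standard error 0.39, adjusted p = 0.923 from limma) and *Rcc2*, which lies next to *Padi6*, by 0.44 log2 (standard error 0.39, adjusted p = 0.851). At an unadjusted p under 0.05 were *Iffo2*, 7 genes from the cluster (−1.12 log2, standard error 0.47, adjusted p = 0.848), and *Fbxo42* (−0.87 log2, standard error 0.36, adjusted p = 0.848).

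**Figure D4:**
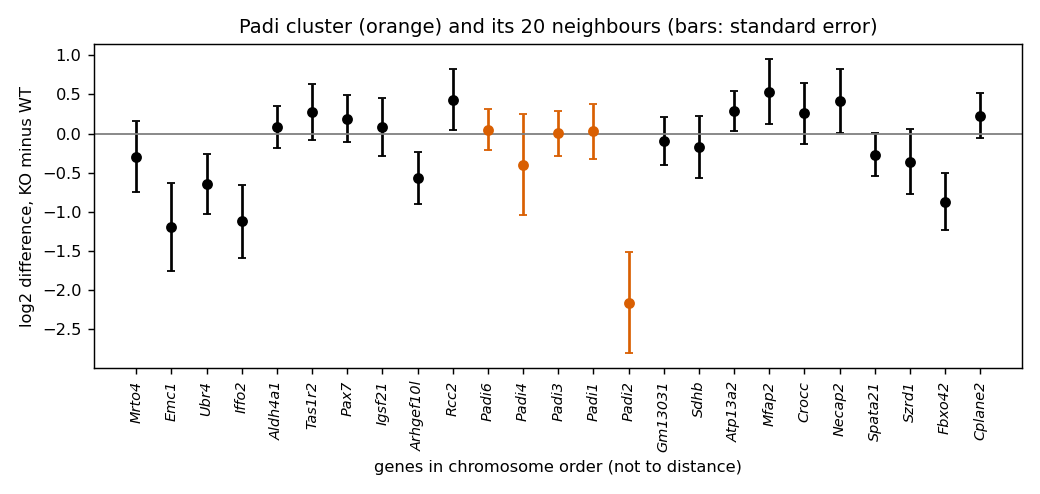
Log2 difference, KO minus WT (vertical axis, bars: standard error), of the 5 *Padi* genes (orange) and 10 neighbours on each side (black), in chromosome order. *Padi2* is at −2.16, while its neighbours *Gm13031* and *Sdhb* are at −0.10 and −0.17.

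Known substrates of the deiminases were measured with 25 of 28 genes. Of these, 1 was lower at the cutoff and 0 were higher (0.297% and 0.428% of all probe sets), 13 were lower and 12 higher, and the median difference was −0.00062 log2. The 1 was *Mbp*, which encodes myelin basic protein. WT mouse 1 had 9.21 log2, mouse 2 had 7.99, mouse 3 had 7.56 and mouse 5 had 7.67. KO mouse 6 had 6.19 log2, mouse 7 had 6.11, mouse 8 had 7.27 and mouse 9 had 6.09, so the genotypes did not overlap. Its difference was −1.69 log2 (standard error 0.43, adjusted p = 0.848 from limma). As for *Padi2*, the highest KO value was that of mouse 8, but the highest WT value was in mouse 1. Vimentin, the intermediate filament protein of connective tissue cells, did not pass (*Vim*, −0.18 log2, standard error 0.68, adjusted p = 0.953 from limma), nor did the matrix proteins fibronectin (*Fn1*, −0.51 log2, standard error 0.59) and tenascin (*Tnc*, 0.29 log2, standard error 0.52). The chaperone *Hspa5* (−1.02 log2, standard error 0.48) and the pyruvate kinase *Pkm* (−0.79 log2, standard error 0.39) had the next smallest p-values and did not pass either. Of 9 measured markers of Schwann cells, *Mbp* among them, 7 were lower in KO mice (47.6% of all probe sets were). The median of the 9 was −0.98 log2 and rests largely on WT mouse 1. It was −0.18 log2 without that mouse and −0.06 log2 with the control contrast as a covariate. Omitting WT mouse 3 gave −0.53 log2, and omitting KO mouse 7 gave −0.49 log2. Their WT mean of 8.08 ± 1.03 log2, highest in mouse 1, compared with a KO mean of 7.30 ± 0.48 log2 (SD, n = 4 each, 2-sided exact permutation test, p = 0.200, adjusted p = 0.667 over 10 lists), and the difference of −0.78 log2 became −0.29 log2 without WT mouse 1.

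Among other enzymes that act on arginine, 0 of 11 genes of protein arginine methylation and 0 of 12 genes of arginine and citrulline metabolism were at the cutoff. It was met by 0.725% of all probe sets, so a count of 0 says little in lists of this size. *Carm1*, a methyltransferase of histone arginines, had the smallest p of the first group (−0.70 log2, standard error 0.43), and did not pass. *Ddah1* and *Ddah2*, relatives of the deiminases that release citrulline from free methylarginines, differed by −0.61 log2 (standard error 0.68) and −0.29 log2 (standard error 0.48). *Gatm*, which makes the precursor of creatine from arginine, had the smallest p of the second group (−0.76 log2, standard error 0.45).

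The genes known to act with each member were followed too, with the cutoff met by 0.725% of all probe sets. Of 15 genes of the cornified envelope, the setting of PADI1 and PADI3, 2 were above background in every array and 0 were at the cutoff. Of 12 oocyte genes, the setting of PADI6, 1 was above background in every array and 0 were at the cutoff. The neutrophil genes, the setting of PADI4, had 14 of 15 lower in KO mice, against 47.6% of all probe sets, with a median of −0.33 log2 and 0 at the cutoff. That median was −0.05 log2 without KO mouse 6 and −0.61 log2 without WT mouse 1, and omitting WT mouse 2 or 5 gave −0.19 or −0.18 log2 and omitting KO mouse 7 or 8 gave −0.54 or −0.60 log2. The neutrophil elastase gene *Elane*, with the smallest p of that list, was 15.05 log2 in KO mouse 6 and 17.6 to 19.2 log2 in the other KO mice (−1.53 log2, standard error 0.76, adjusted p = 0.848 from limma). Among markers of cells that can express *Padi2*, mast cells had 0 of 8 at the cutoff, macrophages 0 of 11, oligodendrocytes 0 of 9 and skeletal muscle 1 of 12. Osteoclast markers ran the other way, with 1 of 10 lower in KO mice (47.6% of all probe sets were), 9 higher and 0 at the cutoff. Their median was 0.46 log2, and 0.32 to 0.57 log2 when a mouse was left out. Their mean did not pass (2-sided exact permutation test, p = 0.200, adjusted p = 0.667). The mast cell gene *Kit*, also a marker of blood progenitors, had −1.42 log2 (standard error 0.57, adjusted p = 0.848 from limma). Of the 8 mast cell genes, 3 were above the negative control median in all 8 arrays, namely *Kit*, *Hdc* and the protease *Cpa3*. The proteases *Cma1* and *Mcpt4* were above it in 0 of 8 arrays, and the other mast cell genes in some arrays only. The muscle gene at the cutoff was *Tnnt3* (−1.40 log2, standard error 0.43), which was above background in WT mouse 1 only. *Atp2a1*, above background in 7 of 8 arrays, had −2.30 log2 (standard error 0.92, adjusted p = 0.848 from limma) and did not pass. It was 11.04 log2 in WT mouse 1 and 9.81 in WT mouse 3. Of the 12 muscle genes, 7 were lower and 5 higher in KO mice. The difference of their mean, −0.40 log2, was −0.10 log2 without WT mouse 1. Oligodendrocyte markers, with 0 of 9 above background in every array, averaged 4.61 to 5.17 log2.

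The difference of *Padi2* was −2.58 to −1.54 log2 when each mouse was left out in turn, with the smallest size without KO mouse 7. That of *Padi4* ran from −0.73 to 0.31 log2. The plot of alternatives shows these values with their errors.

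**Figure D5:**
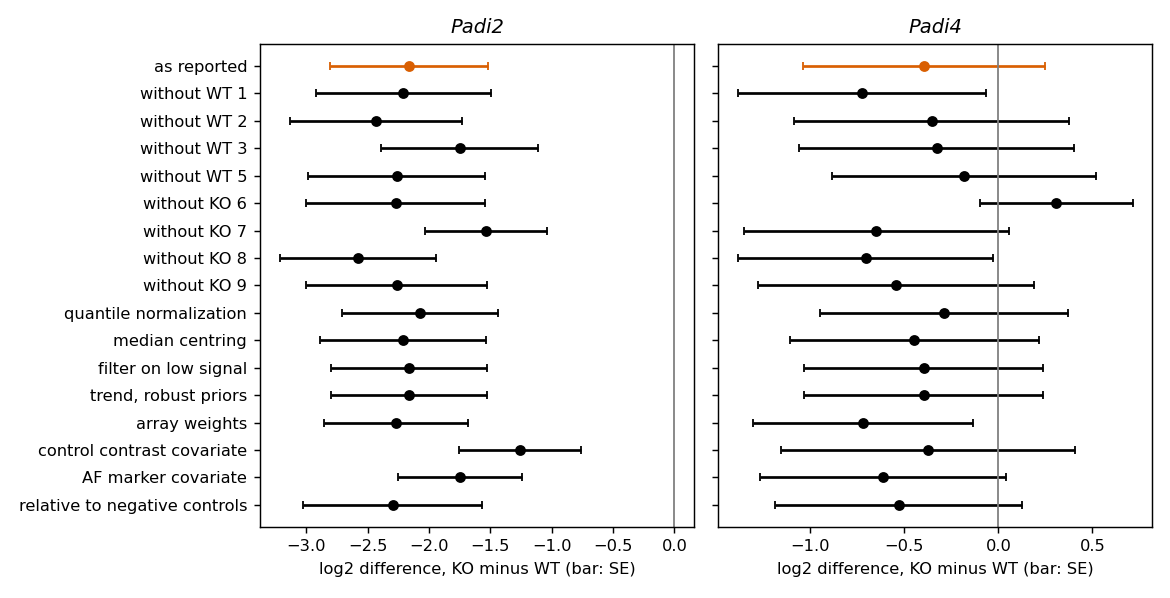
Log2 difference, KO minus WT (horizontal axis, bars: standard error), of *Padi2* and *Padi4* as reported (orange) and under each alternative (black). *Padi2*, chosen for its decrease, is nearest to 0, at −1.26, with the control contrast as a covariate, whereas *Padi4* turns to 0.31 without KO mouse 6.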

How the data were processed

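AF tissue of 4 WT and 4 *Abcc6*-/- mice was hybridized to Mouse Clariom S arrays. The authors scanned them with Command Console and summarised them in the Transcriptome Analysis Console. The deposited values are log2 signal after sst-RMA, a form of robust multi-array averaging whose signal space transformation is designed to counter the compression of fold changes, so differences can exceed those of plain RMA. The genome build is not given in the sources used here, so no coordinates are given for probe sets. GRCm38.p6 (RefSeq) served for promoters, names and gene order. Without detection p-values the filter of the methods could not be repeated, and probe sets of low signal were kept.

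The 22206 probe sets that are not controls (6640 of 28846 rows were) entered 1 model without covariates, fitted by lmFit and eBayes of limma 3.58.1 (R 4.3.3). P-values were adjusted over all of them by the method of Benjamini and Hochberg, and the procedure was tested on simulated data. All sample columns were used. The members and lists were chosen with earlier results of these data known. Named genes were drawn from the 5 members, list genes at the cutoff and the 3 with the smallest p per list, 3 neighbours on each side of the cluster, and the 5 probe sets most like *Padi2* and *Padi4*. Other genes (such as *Acan*, *Chad*, *Vim*, *Ddah2*, *Iffo2*, *Cma1* and *Scx*) were named after their values were seen. Relations within genotypes, and the AF covariate and the negative control scale, were added after the data were seen. Alternatives were quantile normalization, median centring, a low-signal filter, other variance models, array weights, covariates, the t-test and leaving out each mouse.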

Additional observations from a re-analysis of the deposited data

Results flagged for a closer look

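A value was marked when 1 of the 4 mice of a genotype stood far from the other 3 (gap over range above 0.829). Chance marks about 1 in 20 groups, and 15 of 160 groups examined were marked. Among the members, *Padi4* was 6.59 log2 in KO mouse 6, against 9.15 to 9.64 in the other KO mice. *Padi1* was 4.31 log2 in KO mouse 9, against 3.35 to 3.47, all below background. KO mouse 6 also stood apart in *Smc4* (14.68 log2), *Eif2ak3* (6.91) and *Sp140* (8.45), which were named for their likeness to *Padi4*, and in the neighbour *Arhgef10l* (7.75 log2, higher than the others). KO mouse 8 stood apart in *Mbp* (7.27 log2), *Pkm* (12.63), *Slc7a1* (6.585) and *Otc* (4.785). In WT mice the marked values were *Smc4* (15.2 log2) and *Mal* (12.42) in mouse 1, *Kit* (11.7) and *Ivl* (4.99) in mouse 2, and *Cd14* (9.73) in mouse 3.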

How the results depend on the processing

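The number of probe sets at the cutoff was 161, and 100 with the filter on low signal and 704 with array weights. With the control contrast as a covariate it was 71, with the AF marker mean as a covariate 86 and by the t-test 73. Leaving out 1 mouse gave 49 (WT mouse 3 omitted) to 992 (KO mouse 8 omitted). The count was 278 when WT mouse 2 was omitted and 104 for WT mouse 5, and it was 85 for KO mouse 6, 81 for mouse 7 and 63 for mouse 9. Of the 179 genes in the lists, 2 were at the cutoff (*Mbp* and *Tnnt3*), against 0.725% of all probe sets. This count was 1 with the filter, 1 with the AF covariate and 0 with the control contrast. When a mouse was left out it was 1 (WT mouse 3, KO mouse 6 or KO mouse 9 omitted) to 4 (WT mouse 5 omitted). *Padi2* was chosen for its decrease and all its KO values were below all WT values. Leaving out a mouse therefore could not change the direction of its difference, and nothing is read from that direction. Under the alternatives run, −1.26 log2 with the control contrast was its smallest size. With the 75th percentile of the negative controls as background, *Padi2* and *Padi4* were above it in 7 arrays each. Of 285 other values, 272 moved by less than 1 SD between mice, and the cause of the others was not tested. The filter left out *Padi1*, *Padi3* and *Padi6*, which therefore have no value under it. No paired analysis was possible because the WT mice are numbered 1, 2, 3 and 5 and the KO mice 6, 7, 8 and 9, and share no number.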
